A study of Mus musculus with 4 samples.

Results

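Kinesins are motor proteins that walk along microtubules or take them apart, and a subset of them builds the mitotic spindle, moves chromosomes on it and separates the daughter cells. The transcripts of most of these motors accumulate in the part of the cell cycle that leads into mitosis, when their promoters are released from repression by the DREAM complex and taken up by activating complexes that contain Mybl2 and Foxm1. In the thymus they mark dividing precursors, since most thymocytes are small resting cells. The members described here are Kif22, Kif11, Kif20a, Kif23, Kif4, Kif2c, Kif15, Kif18a, Kif18b and Kifc1, taken as every probe set whose platform annotation gives that symbol alone. This gave 20 probe sets for 10 genes, among 45037 probe sets and 18193 genes with a symbol of their own on the array. Of the 20 probe sets, 17 passed the filter on dim signals, and they cover 9 of the 10 genes. The only Kif15 probe set was too dim.

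The RNA was that of unsorted thymus cells, called total thymocytes, and was hybridised to Affymetrix arrays, 1 per animal. Both hypomorph animals carried an allele that leaves reduced function of Atg16l1, a gene of the machinery that attaches LC3 proteins to autophagosome membranes. The 2 control animals are called wild-type in the sample descriptions. All 4 mice were 7 weeks old, each group held 1 male and 1 female, and the animals were independent of each other, per the series text. The labels name neither the allele nor the strain and do not say which array is from which sex. Kif4 lies on the X chromosome, so sex and the spread between the arrays of a group cannot be told apart for it. In unsorted cells, fewer cells of a type and less RNA per cell cannot be told apart.

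Kif22 was chosen because 1 of its probe sets passed the limma test of hypomorph against control in these same arrays. The other members were chosen by function with results of that comparison known. Their differences between the groups are therefore given as a description, with no test. Values are log2(signal + 2.29), shifted so that all arrays have the same median. On this scale the tested genes, each taken by its brightest probe set, still had a median difference of 0.21 in favour of the hypomorphs, so each member is also placed against that median.

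Promoter sequences are shown first because 7 of the 9 members matched to a window share a short element near the start. The choice of genes did not use it. RefSeq promoter windows of assembly GRCm38.p6, 250 bases before to 50 bases after a transcript start, were matched for 9 of the 10 members. They were searched on both strands for TTTGAA, the cell cycle genes homology region (CHR) through which DREAM and its activating counterpart bind, and for CCAAT, the box bound by NF-Y. The element within 50 bases of the start is printed for the 7 members that had one, with 12 bases on each side and the element in capitals. All are written 5′ to 3′ in the direction of transcription, so TTCAAA is the element on the opposite strand.
Kif22, chr7:127042420-127042449, minus strand: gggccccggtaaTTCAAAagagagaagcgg
Kif11, chr19:37376351-37376380, plus strand: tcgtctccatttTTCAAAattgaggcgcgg
Kif15, chr9:122951050-122951079, plus strand: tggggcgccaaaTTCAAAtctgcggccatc
Kif23, chr9:61946780-61946809, minus strand: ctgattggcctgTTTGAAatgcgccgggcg
Kif18b, chr11:102925104-102925133, minus strand: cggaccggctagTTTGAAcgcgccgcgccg
Kifc1, chr17:33890615-33890644, minus strand: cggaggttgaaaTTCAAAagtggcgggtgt
Kif4, chrX:100626072-100626101, plus strand: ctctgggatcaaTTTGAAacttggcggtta

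In these 7 windows the element began between 19 bases before and 20 bases after the start. It began at -19 in Kif11 and Kif15, at -17 in Kif22, and at 2, 3, 4 and 20 in Kifc1, Kif23, Kif18b and Kif4. The distance of 50 bases was chosen after the positions were seen. Within that distance TTTGAA or its complement occurred in 7 of 9 member windows (77.8%), in 3.35% of 10648 windows of tested genes and in 5.22% of all 32851 windows. Over the whole window of 300 bases it occurred in 8 of 9, the eighth being Kif2c at -103, against 12.1% of the windows of tested genes and 17.9% of all windows. The Kif2c window belongs to a start that lies 3852 bases inside the gene's outermost annotated start. The Kif18a window did not hold these letters, and Kif20a had no matched window.

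Promoters of other kinesins were searched in the same way. The element lay within 50 bases of the start in 2 of 21 windows of transport and ciliary kinesins and in 1 of 6 windows of other kinesins with a role in division. It was there in 15 of 18 windows of spindle and midzone partners of the kinesins, such as Prc1 and Racgap1. CCAAT or its complement ATTGG lay within 50 bases of the start in 6 of 9 member windows (66.7%) and in 15.8% of the windows of tested genes, where 1 base of the element within that distance was enough. Counted by the first base of the box, these were 5 of 9 and 14.7%, since the Kif22 box only reaches -50 with its last base. Over the whole window the box occurred in 6 of 9 member windows (66.7%) and in 37.9% of the windows of tested genes, a smaller contrast. There it occurred in 3 of 6 windows of other kinesins with a role in division. It occurred in 7 of 21 windows of transport and ciliary kinesins and in 12 of 18 windows of the partners. Both elements together can be read in the Kif22 promoter, shown here because Kif22 is the member with a called probe set. It is chr7:127042468-127042670, minus strand, from 250 to 48 bases before the start, which ends where the outermost annotated transcript begins. CCAAT boxes and the distal TTCAAA are in capitals.
Kif22 promoter: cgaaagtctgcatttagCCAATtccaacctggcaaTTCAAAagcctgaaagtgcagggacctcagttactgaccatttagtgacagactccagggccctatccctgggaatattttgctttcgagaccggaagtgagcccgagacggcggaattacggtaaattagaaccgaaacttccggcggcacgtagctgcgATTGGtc

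The distal element began at -215 and the CCAAT boxes at -233 and -54, so the box nearest the start stood 37 bases upstream of the proximal element printed above. Matches of this kind describe letters in a window and do not show that a factor is bound there.

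**Figure D1:**
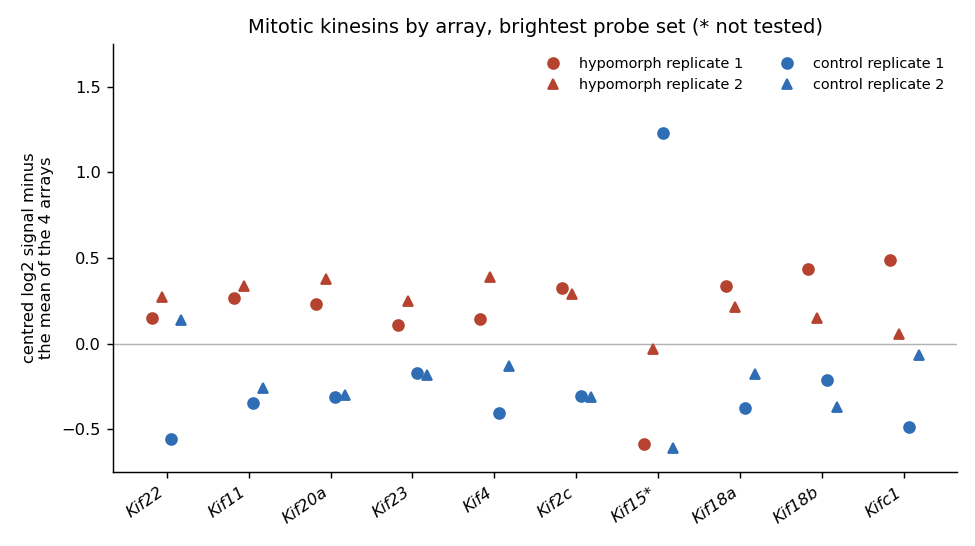
Centred log2 signal of each member's brightest probe set on each of the 4 arrays, minus the mean of the 4 arrays for that probe set (vertical axis, log2), by gene (horizontal axis). Red marks hypomorph and blue control arrays, circles replicate 1 and triangles replicate 2; in 9 genes both hypomorph arrays lie above both control arrays, and in Kif15, which was too dim to be tested, the highest point is control replicate 1.

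By their brightest probe set, 9 of the 10 members had both hypomorph arrays above both control arrays. The same was true of 51.7% of the 10235 tested genes, and the reverse of 4.9%, so most of the array leaned the same way. The median difference over the 10 members was 0.55 on the log2 scale, against 0.21 for the tested genes. Except for Kif15, the members lay between 0.36 (Kif23) and 0.62 (Kif2c), all above the median of the tested genes. With quantile normalization these 9 members still lay above the median of the tested genes, which was then 0.02, with Kif23 lowest at 0.11, and the groups overlapped for Kif22 and Kif23 among them. They also overlapped for Kif22 and Kifc1 when arrays were centred on tested probe sets, and for Kif22 without a pseudocount.

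The chromosome-binding motors are Kif22 and Kif4. Kif22, also called Kid, binds DNA and pushes chromosome arms away from the spindle poles. Its probe set 1451128_s_at gave signals, as deposited, of 916 and 662 in the hypomorphs and of 281 and 370 in the controls. Centred log2 values were 9.45 and 9.44 in the hypomorphs and 8.41 and 8.60 in the controls. The hypomorph arrays were nearly level with each other, and the groups did not overlap. The means were 9.44 ± 0.0070 (SD, n = 2) and 8.51 ± 0.14 (SD, n = 2), a difference of 0.94 ± 0.14 (SE), or 1.92-fold.

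This was the only call among the 17 tested probe sets of the members, where limma called 0.0622% of all tested probe sets, 0.0488% as higher and 0.0133% as lower. It had the largest p-value of the 14 probe sets called, with an adjusted p of 0.0446 in limma, and Pan3 just ahead of it had 0.0440. The first probe sets beyond the threshold of 0.05 were those of Ccna2 (0.0504), which encodes cyclin A2, and Stk25 (0.0550). Without control replicate 1 the adjusted p of the Kif22 probe set was 0.159 and without control replicate 2 it was 0.0584. The call was also lost with quantile normalization (difference 0.69, adjusted p 0.368) and when arrays were centred on tested probe sets alone (0.76, adjusted p 0.172).

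The other Kif22 probe sets gave smaller differences. For 1423813_at, designed on the same transcript record as the called one, the log2 values were 8.20 and 8.08 in the hypomorphs and 7.33 and 7.45 in the controls, a difference of 0.75 ± 0.16 (SE). For 1437716_x_at, the brightest of the 3, they were 10.64 and 10.76 against 9.93 and 10.63. Here control replicate 2 stood just below the hypomorphs and control replicate 1 alone was low. The difference of this probe set was 0.42 ± 0.20 (SE), and without control replicate 1 it was 0.07, below the median of the tested genes in that setting (0.16). The suffix _x_at marks probe sets that hold probes shared with other sequences, in Affymetrix's naming. The annotation does not say which.

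**Figure D2:**
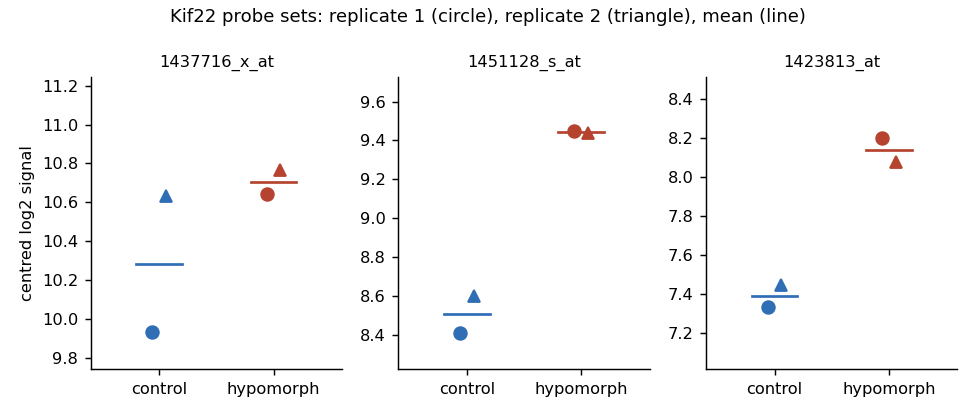
Centred log2 signal (vertical axis, each panel spanning the same 1.5 log2 units) of the 3 Kif22 probe sets in control (blue) and hypomorph (red) arrays, with replicate 1 as a circle, replicate 2 as a triangle and the group mean as a line. The probe sets 1451128_s_at and 1423813_at show wide gaps between the groups (0.94 and 0.75), while in 1437716_x_at control replicate 2, at 10.63, reaches the level of the hypomorph arrays.

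Kif4, the second chromosome-binding motor, also shortens and organises the microtubules of the anaphase midzone together with Prc1. Its single probe set had log2 values of 7.64 and 7.89 in the hypomorphs and 7.09 and 7.37 in the controls. The groups did not overlap, with the closest arrays 0.27 apart (hypomorph replicate 1 and control replicate 2). The difference was 0.53 ± 0.18 (SE).

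Motors of the spindle's body and poles slide microtubules apart (Kif11, with Kif15 beside it) or draw their minus ends together (Kifc1). Kif11, also called Eg5, crosslinks antiparallel microtubules and pushes the poles apart. Its brightest probe set stood at 9.20 and 9.27 in the hypomorphs and at 8.58 and 8.67 in the controls, a difference of 0.61 ± 0.13 (SE). All 3 Kif11 probe sets had both hypomorph arrays above both control arrays, and the others differed by 0.75 ± 0.16 (SE) and 0.58 ± 0.19 (SE). The gap between the groups thus did not rest on a single Kif11 probe set.

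Kifc1 walks towards microtubule minus ends and focuses the spindle poles. Its values were 6.15 and 5.72 in the hypomorphs and 5.17 and 5.59 in the controls, a difference of 0.55 ± 0.30 (SE). Hypomorph replicate 2 and control replicate 2 were only 0.12 apart, and its SE was the largest among the members' brightest probe sets. The mouse genome holds a closely related copy, Kifc5b, and the _s_at suffix marks probes that match more than 1 transcript, so the signal of Kifc1 is uncertain as to its gene. The called Kif22 probe set carries the same suffix, and the brightest Kif2c probe set the suffix _x_at, so the same limit holds for them.

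Kif15 supports bipolar spindles beside Kif11 and is carried to microtubules by Tpx2. Its signals, as deposited, were 4.78 and 5.28 in the hypomorphs and 13.5 and 2.80 in the controls. These are close to the pseudocount of 2.29. The groups overlapped, with control replicate 1 at the top, and the difference of -0.62 changed to 0.30 without that array and to -1.54 without control replicate 2. No direction can be read for Kif15 from this array.

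Motors that control microtubule length are Kif2c, Kif18a and Kif18b. Kif2c, also called MCAK, depolymerises microtubules at centromeres and helps correct faulty attachments. Its brightest probe set was at 8.62 and 8.58 in the hypomorphs and at 7.99 and 7.98 in the controls. Replicates were within 0.04 of each other, and the difference was 0.62 ± 0.14 (SE). The other 3 Kif2c probe sets differed by 0.69 ± 0.23 (SE), 0.42 ± 0.21 (SE) and 0.35 ± 0.36 (SE). The last of these, 1432392_at, was the only tested member probe set whose groups overlapped, with control replicate 2 (5.97) above both hypomorph arrays and control replicate 1 (4.91) far below.

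Kif18a caps microtubule growth at kinetochores and damps the oscillation of aligned chromosomes. Its values were 7.68 and 7.56 in the hypomorphs and 6.97 and 7.17 in the controls, a difference of 0.55 ± 0.17 (SE). Its other probe set had signals of 14.4 and 6.04 against 1.21 and 8.93, was too dim to be tested and overlapped between the groups. Kif18b shortens astral microtubules. It was at 7.89 and 7.61 in the hypomorphs and at 7.24 and 7.09 in the controls, with no overlap, a difference of 0.58 ± 0.18 (SE).

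The cytokinesis motors are Kif20a and Kif23, which act at the midzone after the chromosomes have parted. Kif20a brings the chromosomal passenger complex to the midzone. Its values were 8.21 and 8.35 in the hypomorphs and 7.66 and 7.68 in the controls. The control arrays differed by 0.02 and the groups stood clearly apart, with a difference of 0.61 ± 0.15 (SE). Kif23 forms the centralspindlin complex with Racgap1. Its brightest probe set was at 9.19 and 9.33 in the hypomorphs and at 8.91 and 8.90 in the controls, a difference of 0.36 ± 0.13 (SE), the smallest among the tested members. A second Kif23 probe set differed by 0.59 ± 0.21 (SE). Its dim probe set 1450827_at was not tested and differed by 0.11, below the median of the tested genes.

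**Figure D3:**
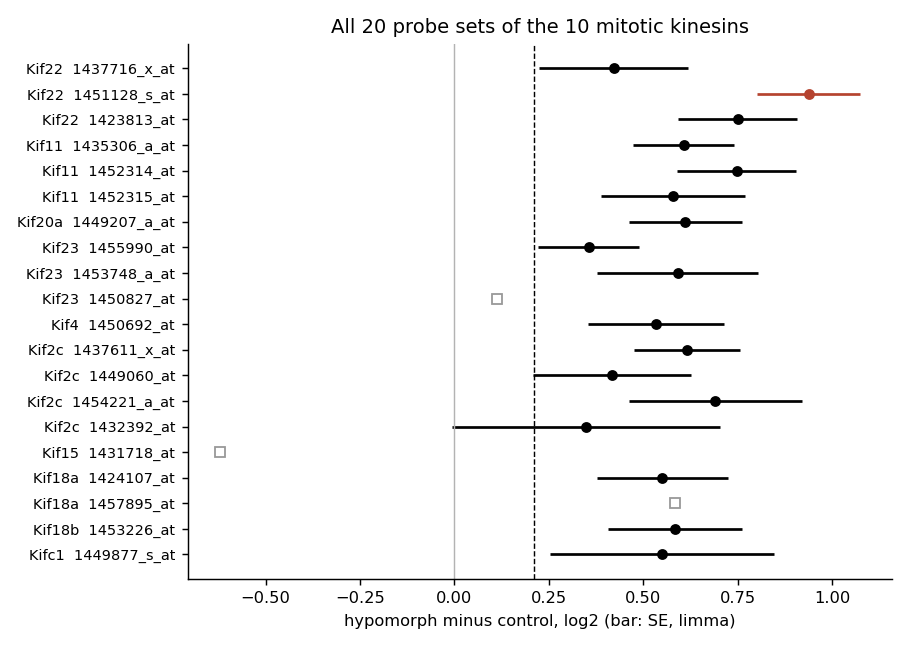
Difference between hypomorph and control means (horizontal axis, log2) for all 20 probe sets of the 10 members, with the SE from limma as a bar. Filled circles were tested, open grey squares were too dim to be tested, red is the called Kif22 probe set, and the dashed line is the median of the tested genes at 0.21; 18 of the 20 lie to its right, and the exceptions are the dim probe sets of Kif15 and Kif23.

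Across all 20 probe sets, 17 had both hypomorph arrays above both control arrays and 3 overlapped, where 43.8% of the tested probe sets lay fully above and 7.04% fully below. The overlapping ones were those of Kif15, the dim Kif18a probe set and the dimmest of Kif2c. The median of the 20 differences was 0.58. Since dim probe sets pass the filter more readily when high in a group, these counts describe the members and support no test.

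The members could also be set out array by array. Hypomorph replicate 1 exceeded control replicate 1 by a median of 0.62 over the 10 members and control replicate 2 by 0.52. For hypomorph replicate 2 these medians were 0.59 and 0.52. The corresponding medians over the tested genes were 0.22, 0.12, 0.31 and 0.20, so the members' median stood above the arrays' own shift in each of the 4 pairs. In each pair with control replicate 1, 9 of the 10 members lay above the median of the tested genes. With control replicate 2 it was 8 of 10 in each pair. There the gap of Kif22 was narrow and below that median in both pairs. It was 0.01 from hypomorph replicate 1, and against hypomorph replicate 2 the values were 10.63 and 10.76. The other member below was Kif15 in the pair with hypomorph replicate 1 and Kifc1 (0.12) in the pair with hypomorph replicate 2. Kif15 counts as above the median in that last pair, though no direction can be read for it.

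Differences between animals of the same group were read separately; they enter the choice of Kif22 only through the SE of its test. Within the hypomorph group, replicate 2 minus replicate 1 had a median of 0.09 over the 10 members, with 6 of 10 positive, and of 0.08 over all tested genes. Within the control group the medians were 0.05 and 0.10, again with 6 of 10 members positive. Over the 9 tested members, without the dim Kif15, the medians were 0.07 in the hypomorphs (5 positive) and 0.08 in the controls (6 positive). Over all 17 tested probe sets of the members, control replicate 2 was above control replicate 1 in 14, against 62.2% of all tested probe sets. Hypomorph replicate 2 was above replicate 1 in 6 of the 17, against 56.5%. Several of the 17 read the same gene in the same RNA, so these counts do not rest on independent values. Among the brightest probe sets, Kif4 was higher by 0.24 on hypomorph replicate 2 while Kifc1 was lower by 0.43 and Kif18b by 0.29. Between the control arrays, Kif22 was 0.70 higher on replicate 2 and Kif18b 0.16 lower.

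**Figure D4:**
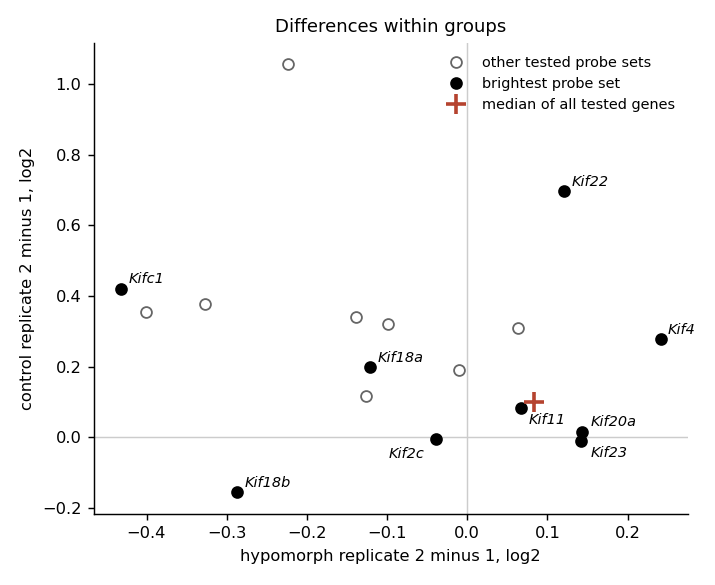
Replicate 2 minus replicate 1 within the hypomorph group (horizontal axis, log2) against the same within the control group (vertical axis, log2) for the 17 tested probe sets of the members, with the brightest probe set of each gene filled and named. The red cross is the median over all tested genes (0.08 and 0.10); the members scatter on both sides of it, with Kif22 at 0.70 on the control axis and Kifc1 at -0.43 on the hypomorph axis.

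The genes whose 4-array pattern was nearest to that of the brightest Kif22 probe set were Dguok, Troap, Arf5, Dgkeos and Lim2, at Euclidean distances of 0.05, 0.05, 0.06, 0.07 and 0.08 on the log2 scale over 4 arrays. Each of them had the lowest value on control replicate 1, as Kif22 did, which follows from their choice by nearness. The distances hold for this probe set alone. Its control arrays differed by 0.70, those of the other Kif22 probe sets by 0.19 and 0.12. Dguok, a mitochondrial deoxyguanosine kinase, was at 7.87 and 8.06 in the hypomorphs and at 7.20 and 7.90 in the controls. Troap, a spindle-associated protein, was at 5.66 and 5.74 against 4.91 and 5.67. The other members tested were farther away: the nearest of them was Kif4 at 0.33, which ranked 901 among all genes by nearness, and the farthest Kif18b at 0.69.

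Other kinesins, from lists taken up for comparison, were measured on the same arrays. Of 5 further kinesins with a role in division, 4 were tested and none passed in either direction, with a median difference of 0.54. Kif20b, which acts in late cytokinesis, was at 0.61 ± 0.16 (SE) and the kinetochore motor Cenpe at 0.48 ± 0.14 (SE). Kif24, which acts at centrioles, was at 0.80 ± 0.39 (SE) and Kif2a, a depolymerising motor of spindle poles, at 0.24 ± 0.15 (SE). All 4 had both hypomorph arrays above both control arrays, as 51.7% of all tested genes did, and Kif14 was too dim to be tested. Kif24 had log2 values of 6.23 and 5.98 in the hypomorphs and 4.64 and 5.97 in the controls. Control replicate 2 thus stood just below hypomorph replicate 2, and control replicate 1 alone was low.

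Transport and ciliary kinesins showed a different distribution. Of 25 listed genes, 13 were tested, none passed in either direction, and the median difference was 0.14, below that of the tested genes. In 5 of the 13 both hypomorph arrays lay above both control arrays, and in none both below, against 51.7% and 4.9% of all tested genes. Their range was -0.11 to 0.71. Kif7, a ciliary regulator of hedgehog signalling, was at 0.71, Kif21b at 0.33, and the cargo motors Kif3a and Kif3b at 0.32 and 0.24. The lowest tested mitotic member, Kif23, was at 0.36, and 12 of these 13 genes lay below it. The comparison of the classes is a description, since the members were chosen with the contrast known.

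Kinesin light chains and the adaptor Kifap3 had 4 tested genes of 5, none called in either direction, with a median difference of 0.24. Kifap3, which links heterotrimeric kinesin to cargo, was at 0.47, Klc3 at 0.25, Klc1 at 0.23 and Klc4 at -0.19.

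**Figure D5:**
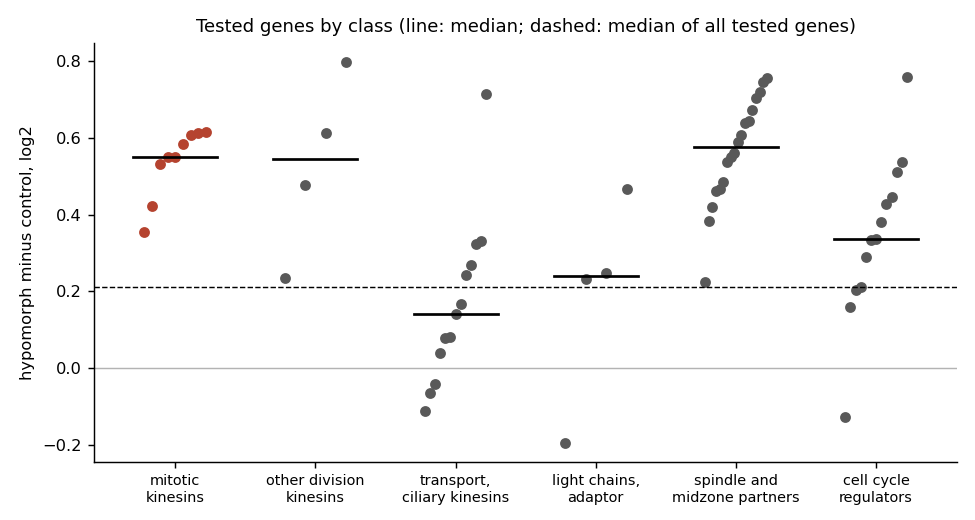
Difference between hypomorph and control means (vertical axis, log2) of each tested gene, by class (horizontal axis), with the class median as a line and the median of all tested genes (0.21) dashed. Mitotic kinesins (red, median 0.55), other kinesins of division (0.54) and spindle partners (0.58) lie higher than transport and ciliary kinesins (0.14) and light chains (0.24).

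Genes of proteins that work with these motors were also read. All 18 spindle and midzone partners were tested, none passed in either direction, and each had both hypomorph arrays above both control arrays, against 51.7% of all tested genes. Their median difference was 0.58, against 0.21. Those with the smallest p-values were Birc5, a chromosomal passenger subunit (0.70 ± 0.13 SE), the spindle protein Hmmr (0.76 ± 0.15 SE), Prc1, the midzone bundler that recruits Kif4 (0.72 ± 0.14 SE), and Cdca8, another passenger subunit (0.64 ± 0.13 SE). Their adjusted p-values in limma were 0.147 to 0.148. Racgap1, the partner of Kif23, and Tpx2, the partner of Kif15, were picked for their partners after their values were seen and stood at 0.59 ± 0.15 (SE) and 0.54 ± 0.14 (SE).

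Transcription regulators of the cell cycle had 13 of 13 genes tested, with none called and a median difference of 0.34. E2f4, a subunit of DREAM, was at 0.76 ± 0.16 (SE), the pocket protein gene Rbl1 at 0.45 ± 0.13 (SE), Tfdp1, the dimer partner of E2F proteins, at 0.38 ± 0.13 (SE) and Mybl2 at 0.51 ± 0.19 (SE). In 9 of the 13 both hypomorph arrays lay above both control arrays, against 51.7% of all tested genes. Others are given after their values were seen: Foxm1 was at 0.33 with overlapping groups, and Lin52, a DREAM subunit, was at -0.13.

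Markers of cell types and of proliferation were read beside the members as summed signals after centring. The 8 proliferation markers on the array, all tested, summed to 18719 and 20675 in the hypomorphs and to 15318 and 15313 in the controls. All 8 had both hypomorph arrays above both control arrays, as did 51.7% of all tested genes. Their median difference was 0.49, against 0.21 for the tested genes, and 7 of the 8 lay above that median. Their part in the members' differences was not tested. The 10 thymocyte markers, all tested, summed to 29340 and 32406 against 26831 and 32049. The median difference of these 10 was 0.15, and 6 of them lay below the median of the tested genes. The 4 B cell markers summed to 363 and 369 against 462 and 593, and 9 macrophage and dendritic cell markers to 2798 and 2640 against 3472 and 3155. Most of the macrophage and dendritic cell sum came from Cd74 and H2-Aa. In 4 of these 9 genes both hypomorph arrays lay below both control arrays, against 4.9% of all tested genes. The groups overlapped in the other 5, and 2 of the 9 had a higher mean in the hypomorphs. The 5 granulocyte markers summed to 2120 and 3630 against 611 and 5673, control replicate 1 being lowest. The 4 erythroid markers, none bright enough to be tested, summed to 26.3 and 25.1 against 35.3 and 22.6, and 6 thymic epithelial markers, of which 3 were tested, to 174 and 126 against 147 and 156. No marker stayed below the pseudocount on all 4 arrays, and the part of these lists in the members' differences was not tested. As a check of the labels, the brighter Atg16l1 probe set had signals of 108 and 70.8 in the hypomorphs and 184 and 241 in the controls, with no overlap.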

How the data were processed

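The deposited table holds 1 probe set signal per array, an intensity on a linear scale which the authors made in GCOS (Affymetrix software, per the submitters' processing notes). The GCOS version and scaling target are not stated in these sources. Array medians ranged from 23.5 to 38.4, so scaling to a common median had not been done. Of 45101 probe sets, 64 controls were left out. Log2 was taken after adding 2.29, the 10th percentile of signals, and arrays were centred, and the 22519 probe sets with mean values at or above the median were tested with limma 3.58.1 in R 4.3.3 (lmFit, eBayes with a trend, two-sided, no covariates), adjusted by Benjamini-Hochberg over all of them at 0.05. Fold changes on this scale understate changes of dim genes. The smallest p of an exact permutation test at this size is 0.333, and 2 arrays per group limit the precision. A gene is represented by its brightest probe set unless stated. The fit was tested on simulated data. The members and lists were chosen with earlier results of these data known. Named genes are all members, Atg16l1, the tested genes with the smallest p of each companion list (up to 4), and the 5 genes nearest to Kif22 in pattern. Outside this rule are the genes next to Kif22 at the threshold (Pan3, Ccna2, Stk25) and, chosen after their values were seen, Racgap1, Tpx2, Foxm1, Lin52, Cd74 and H2-Aa. Gene names come from GEO's platform annotation and promoters from RefSeq. Alternatives were no centring, centring on tested probe sets, quantile normalization, other pseudocounts and filters, no variance trend, a replicate block, each array left out, and other probe sets per gene.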

Additional observations from a re-analysis of the deposited data

How the results depend on the processing

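Limma called 14 probe sets, 1 of them of a member (Kif22), and the members' median difference was 0.55. With quantile normalization these were 4, 0 and 0.36, with centring on the tested probe sets 7, 0 and 0.38, and without centring 84, 0 and 0.88. Relative to the tested genes the median was 0.34 in each of these 3 settings, as in the main analysis. For both changes of centring this was fixed in advance, since a constant per array cancels in the comparison. Only quantile normalization could have given another value. No member probe set was called without a pseudocount or with one of 8.44 (adjusted p of the Kif22 probe set 0.0566 and 0.0587), without the filter (4 calls in all, Kif22 0.188), or without the variance trend (0 calls, 0 of members, at 2492 probe sets with an unadjusted p under 0.05). Kif22 stayed called with the filter at the 75th percentile (adjusted p 0.0179). The replicate block gave 9 calls and 0 of members (Kif22 0.0713); same-numbered arrays share only a number, with a correlation of their deviations of 0.08. Leaving out an array gave 8 to 340 calls in all, with 340 and 58 without hypomorph replicates 1 and 2 and 8 and 22 without control replicates 1 and 2. Of the members' probe sets 0 to 1 was called, and Kif22 lost its call without either control array. The members' median then ranged from 0.42 to 0.63. Relative to the tested genes it ranged from 0.23 without hypomorph replicate 1 to 0.38 without hypomorph replicate 2. Fits that leave a single array in a group assume that it varies like the other group. Kif15 went from -0.62 to 0.30 without control replicate 1 and to -1.54 without control replicate 2. Over all values of single members under alternatives, those of Kif15 included, 94 moved by no more than the spread between replicates, 24 moved by more and 1 changed sign. Many of the 94 were fixed in advance. Leaving out an array of a group of 2 cannot move a difference beyond this spread. The filter at the 75th percentile and genes with a single eligible probe set return the same values. The count is therefore no measure of stability, and the cause of the shifts was not tested. Signal over background limits Kif15 and the other dim probe sets.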
